A study of Caenorhabditis elegans with 2 samples.

Results

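Regions of EYG-1 ChIP-seq enrichment that lay between genes and far from any annotated promoter were examined in late embryos of the nematode Caenorhabditis elegans. A region of the pooled peak list was a member when its summit, the position of highest signal, lay outside all protein-coding genes, more than 1000 bp from every annotated 5′ end of a protein-coding transcript, and not within 100 bp of a tRNA, snoRNA, snRNA, miRNA or ncRNA gene. Of the 24215 regions of the pooled list, 5036 (20.8%) met the rule. The nearest 5′ end lay 1000 to 2000 bp away for 1727 of them (34.3%) and over 2000 bp away for 3309 (65.7%). Neighbouring regions can cover the same sequence: 1168 members overlapped another member, and the 5036 members formed 4442 separate spans.

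The worms were hermaphrodites of strain OP443, a transgenic line that stably expressed EYG-1 (sequence name Y53C12C.1) with a GFP-FLAG tag at its C-terminus, and they were collected 4 hours after synchronization by egg bleaching. Chromatin of whole organisms was broken by sonication, and an anti-GFP antibody was used for the precipitation. There were 2 libraries, biological replicates 1 and 3, in 1 group, so no conditions were compared and nothing was tested between samples. The enrichment is that of a tagged protein from a transgene over all cells of the embryo together, and a binding event in few cells cannot be told apart from a weak one in many.

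EYG-1 is a homeodomain protein named after eyegone of Drosophila, and homeodomains commonly contact short AT-rich sites with a TAAT core. Most regulatory sequence of C. elegans lies close to the genes it serves, since the genome is compact, but distal enhancers are known beside developmental and neuronal genes, where the spaces between genes are wide. Many C. elegans messages receive a trans-spliced leader, so an annotated 5′ end can lie downstream of the site where transcription starts.

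The windows from 50 bp before to 50 bp after the summit of the strongest members with support in the replicate-filtered (optimal) list are printed because they show the base content of these sites, and how sites in repeated sequence looked. A stronger member than some of them, between prhg-1 and nas-30, has 35.64% GC, also lies in repeated sequence and is not printed. The first 4 are the strongest over 2000 bp from a 5′ end outside one chromosome for which no sequence is printed, the next 4 the strongest at 1000 to 2000 bp, and the last 2, chosen after their values had been seen, are copies of a repeat. All are the plus strand of the ce11 (WBcel235) assembly from RefSeq, 5′ to 3′, named by the protein-coding genes on each side. Capitals mark matches to GAGAGA or GACGCAG on either strand, so that TCTCTC and CTGCGTC are marked as well. In the window beside pptr-1 the 2 matches overlap.
W01H2.2 and rab-37, chrX:4222870-4222970: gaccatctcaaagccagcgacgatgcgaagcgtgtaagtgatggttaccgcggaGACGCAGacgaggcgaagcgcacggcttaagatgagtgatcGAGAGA
cutl-22 and cmd-1, chrV:1151501-1151601: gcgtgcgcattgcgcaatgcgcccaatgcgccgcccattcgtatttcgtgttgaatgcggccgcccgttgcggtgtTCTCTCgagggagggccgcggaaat
C23H3.2 and egl-26, chrII:66420-66520: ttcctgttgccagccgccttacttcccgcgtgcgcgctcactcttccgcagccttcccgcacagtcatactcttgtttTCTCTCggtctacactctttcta
gtr-1 and F25E2.2, chrX:806626-806726: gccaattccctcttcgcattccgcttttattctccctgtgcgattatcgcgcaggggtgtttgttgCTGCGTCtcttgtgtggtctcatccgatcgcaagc
F20B6.9 and hpk-1, chrX:4209232-4209332: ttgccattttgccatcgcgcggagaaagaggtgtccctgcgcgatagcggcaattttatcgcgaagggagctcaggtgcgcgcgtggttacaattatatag
W08G11.1 and pptr-1, chrV:16356022-16356122: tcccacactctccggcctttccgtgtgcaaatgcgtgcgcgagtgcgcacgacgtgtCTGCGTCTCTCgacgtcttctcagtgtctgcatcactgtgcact
unc-116 and R05D3.8, chrIII:8356457-8356557: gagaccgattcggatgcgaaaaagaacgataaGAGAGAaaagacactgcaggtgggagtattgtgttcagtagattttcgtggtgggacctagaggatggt
sli-1 and npr-19, chrX:727739-727839: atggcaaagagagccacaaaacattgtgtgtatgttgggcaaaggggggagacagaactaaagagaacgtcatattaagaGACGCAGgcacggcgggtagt
Repeat between pef-1 and fbxa-55, chrIII:931559-931659: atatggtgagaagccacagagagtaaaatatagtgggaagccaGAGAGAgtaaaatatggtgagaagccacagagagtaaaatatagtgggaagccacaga
Repeat between Y64H9A.2 and C24H10.4, chrX:5056366-5056466: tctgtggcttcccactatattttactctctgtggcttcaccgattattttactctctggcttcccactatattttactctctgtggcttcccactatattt

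The members were many and mostly weak. Their pooled signal, the value given by the authors' peak caller and used here only to describe and rank regions within a list, had a median of 17.88 with quartiles of 15.24 and 22.35, beside a median of 18.18 over all pooled regions. The strongest member reached 133.1, whereas the strongest region of the pooled list reached 445.7 and was an intergenic region within 1000 bp of a 5′ end. A signal of at least 50 was found in 85 members (1.69%), in 866 of all pooled regions (3.58%) and in 341 of the 4205 intergenic regions within 1000 bp of a 5′ end (8.11%). The median was 17.88 in both distance bands. The depth of the libraries is unknown, and the pooled list holds background regions by construction.

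Few members belonged to the optimal list, the 519 regions that the authors kept after comparing the ranks of regions between replicates. A member region overlapped an optimal region by at least 1 bp in 91 cases (1.81%, exact binomial 95% interval 1.46% to 2.21%), against 2.98% of all pooled regions and 5.30% of intergenic regions within 1000 bp of a 5′ end (interval 4.65% to 6.02%). These intervals cover counting error only, and overlapping regions are not independent. Overlap was 1.39% at 1000 to 2000 bp (24 members, interval 0.892% to 2.06%) and 2.02% over 2000 bp (67 members, interval 1.57% to 2.56%). The intervals of the 2 bands overlap.

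Overlap also took in regions beside an optimal summit of another kind. Of the 91 members, 17 overlapped an optimal region whose own summit lay within 100 bp of a small RNA gene. The small RNA gene nearest to the member's summit was a tRNA gene for 6 of these and an ncRNA gene for 11. A stricter count required an optimal summit within 100 bp of the member's summit, which held for 51 members (1.01%, interval 0.755% to 1.33%), against 2.10% of all pooled regions and 3.95% of the nearer intergenic regions. There were 12 such members at 1000 to 2000 bp and 39 over 2000 bp. Counted from the other side, the own summit of 50 of the 519 optimal regions (9.63%) met the rule. These 51 members are called distal optimal sites. For 49 of the 51 the optimal summit itself also met the rule.

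The share in the optimal list was higher at higher signal in distal and nearer intergenic regions alike, and the optimal list itself was made from ranks of the regions. Of the 32 members with a pooled signal of at least 70, 31 (96.9%) were distal optimal sites, and of the 137 nearer intergenic regions at that level 127 (92.7%) had an optimal summit. Between 50 and 70 the shares were 15 of 53 members (28.3%) and 35 of 204 nearer regions (17.2%), and none of the 4588 members below 30 was a distal optimal site. The sole member at or above 70 without an optimal summit lay on chromosome V between nhr-204 and lgc-26, with a signal of 79.81. It had no matching region in replicate 1, and its window was placed 38 times in the genome.

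**Figure D1:**
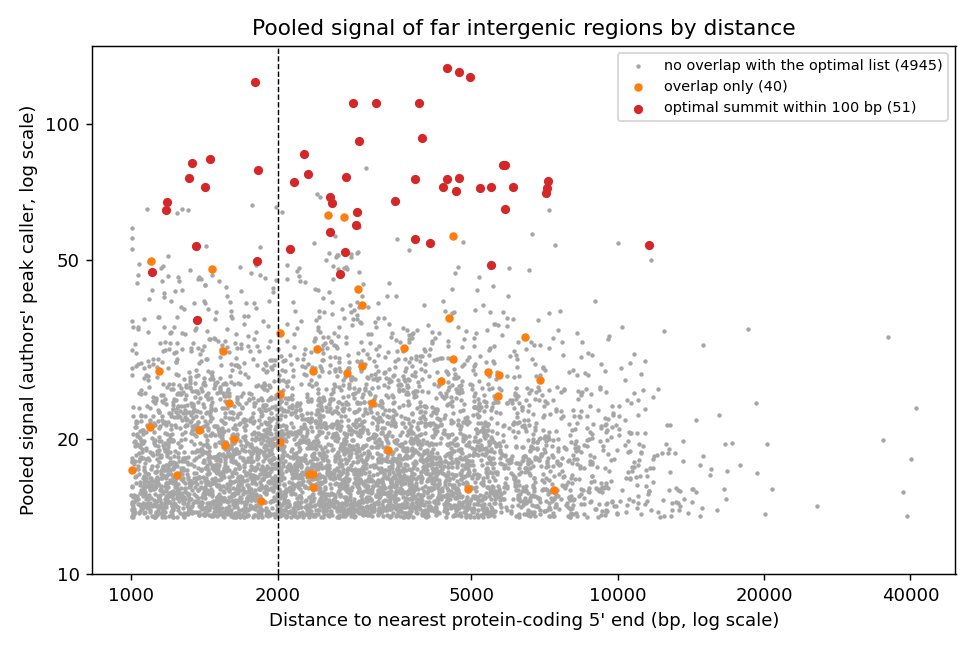
Pooled signal of each of the 5036 members (log scale) against the distance from its summit to the nearest protein-coding 5′ end (bp, log scale), with the 2000 bp split as a dashed line. The 51 distal optimal sites (red) reached out to 11595 bp and 46 of them had a signal of at least 50, while the 40 members that only overlapped an optimal region (orange) had signals between 14.52 and 62.96.

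The share of distal optimal sites showed no steady trend with distance. It was 0.937% at 1000 to 1500 bp, 0.392% at 1500 to 2000 bp, 1.23% at 2000 to 3000 bp and 0.804% at 3000 to 4000 bp. Farther out it was 1.75% at 4000 to 6000 bp, 0.810% at 6000 to 10000 bp and 0.735% beyond, where 1 of 136 members qualified. At the edge of the rule, 3 of the 198 members with a 5′ end at most 1100 bp away overlapped the optimal list, and 10 of the 225 intergenic regions just outside it (over 900 and up to 1000 bp) did. For small RNA genes, 8 of 95 members with such a gene at most 150 bp away overlapped the list, compared with 18 of 105 regions just outside (over 50 and up to 100 bp).

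The 10 members farthest from a 5′ end lay 20132 to 41110 bp away, and none overlapped the optimal list. At the left end of chromosome X, before the first gene Y73B3A.1, 8 of them lay. The other 2 lay on chromosome IV, beside jac-1 (the delta-catenin of adherens junctions) and between Y73B6A.1 and Y73B6A.3. Their signals ran from 13.44 to 33.67.

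Most members were matched in at most 1 replicate, and those of high signal in both. A summit within 100 bp was found in both replicate lists for 807 members (16%), against 18.2% of all pooled regions and 25.4% of the nearer intergenic regions, and in neither list for 1068 (21.2%). Members with a pooled signal below 20 were matched in both lists in 3.71% of cases and those at 70 or more in 90.6%. Of the 51 distal optimal sites, 46 (90.2%, interval 78.6% to 96.7%) were matched in both lists, 47 in replicate 1 and 50 in replicate 3. Over all pooled regions with an optimal summit the share was 89.0%. The 4 sites without a match in replicate 1 lay beside sma-9, ztf-6, C24H10.4 and unc-97, and the site without one in replicate 3 lay beside mrpl-20. The last 4 of these names were given after the values had been seen. A missing match is no evidence that EYG-1 did not bind in that replicate.

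**Figure D2:**
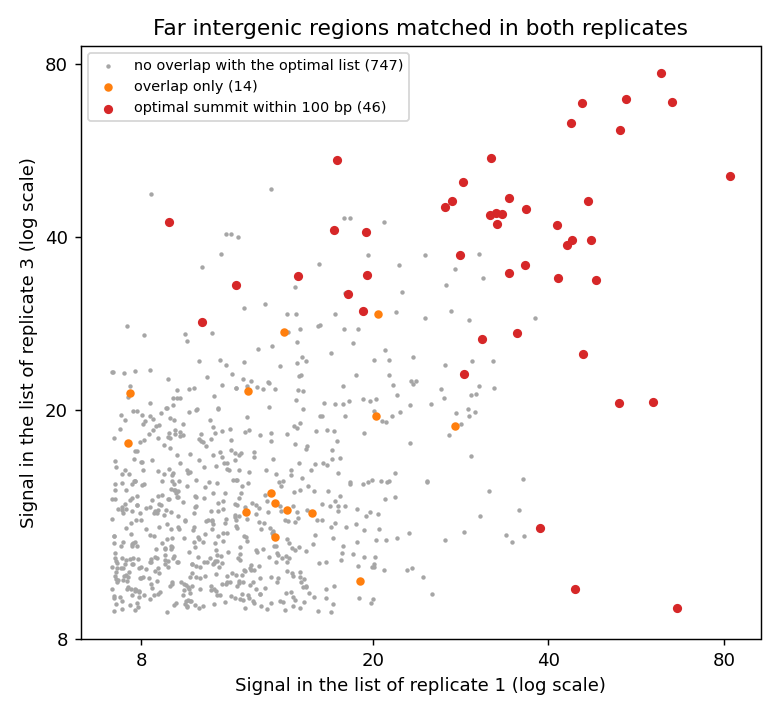
Signal in the list of replicate 1 against signal in the list of replicate 3 (both log scale, each on the scale of its own list) for the 807 members matched in both. The 46 distal optimal sites (red) sat mostly at the upper right, while some were high in 1 list only, such as those with 66.49 in replicate 1 and 9.067 in replicate 3, or 8.941 in replicate 1 and 42.58 in replicate 3. The former overlapped the strongest site, which had 51.04 in replicate 3.

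The strongest distal optimal site lay on chromosome X (chrX:4222692-4223147) with a pooled signal of 133.1, rank 81 of the pooled list. It had 81.82 in replicate 1, rank 23, and 51.04 in replicate 3, rank 247. It lay 4730 bp from the 3′ end of rab-37, a Rab family GTPase gene, and 4462 bp from the 5′ end of W01H2.2. A site 200 bp farther along the same gap (70.99) overlapped it and had 66.49 in replicate 1 but 9.067 in replicate 3, and the ncRNA gene W01H2.8 lay 132 bp from its summit. The scales of the replicate lists are separate, so the values show where each region stood in its own list.

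The next lay on chromosome V (chrV:1151323-1151778), 4720 bp upstream of cmd-1, the calmodulin gene, and downstream of cutl-22, a cuticlin-like gene. Its signal was 130.7 in the pooled list, 65.25 in replicate 1 and 68.67 in replicate 3. A weaker site, with a pooled signal of 52.88, lay 2116 bp upstream of cmd-1 in the same gap.

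On chromosome X, chrX:4209223-4209338 had a signal of 123.9, with 54.27 in replicate 1 and 69.62 in replicate 3. It was the strongest member nearer than 2000 bp and lay 1289 bp from the 3′ end of hpk-1, which encodes the homeodomain-interacting protein kinase, and 1797 bp from the 5′ end of F20B6.9. The site upstream of egl-26, a gene needed for the shape of a vulval cell, had 111.7 pooled, 45.76 in replicate 1 and 68.47 in replicate 3. The site between the convergent genes gtr-1 and F25E2.2 had 111.5 pooled, 43.68 in replicate 1 and 63.14 in replicate 3. By rank within its list, the site beside hpk-1 stood at 113 in replicate 1 and 118 in replicate 3, that beside egl-26 at 197 and 125, and that beside gtr-1 at 228 and 154.

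The site between chd-7, which encodes a chromodomain helicase, and W09C3.4 had 111.3 pooled, 53.08 in replicate 1 and 61.43 in replicate 3, and these genes point away from each other. The site 2938 bp upstream of sma-9, a Schnurri-like zinc finger gene of the body-size TGF-beta pathway, had 91.95 in the pooled list and 37.66 in replicate 3. A shoulder 200 bp farther on had 62.18 in the pooled list and 51.18 in replicate 1. Replicate 3 had a summit within 100 bp of the former but not of the latter, and replicate 1 the reverse.

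Closer to genes, the site 1449 bp upstream of pptr-1, a regulatory subunit of protein phosphatase 2A, had a pooled signal of 83.89, with 41.36 (rank 251) in replicate 1 and 41.99 (rank 396) in replicate 3. The site 1333 bp upstream of unc-116, the kinesin-1 heavy chain gene, had 82.20 pooled, 43.94 in replicate 1 and 39.60 in replicate 3. The site between sli-1, a Cbl ubiquitin ligase gene, and the neuropeptide receptor gene npr-19 had 79.15 pooled, 34.26 in replicate 1 and 46.73 in replicate 3. The site 1316 bp upstream of gpb-1, a G protein beta subunit gene, had 76.03 pooled and stood unevenly, with 17.35 (rank 2405) in replicate 1 and 54.37 (rank 209) in replicate 3.

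Most distal optimal sites stood alone. With neighbours joined when at most 10000 bp apart, the 51 sites formed 46 groups, of which 4 held more than 1 site. The largest held 3 sites over the gap between F54F12.1 and Y39E4B.6 on chromosome III, with signals of 85.73, 81.15 and 74.89. The other 3 were the pairs already given beside rab-37 and cmd-1 and a pair between sam-10 and mrpl-20 (63.68 and 46.40). Small RNA genes were mostly far: 41 of the 51 sites had none within 1000 bp, and 6 had one over 100 and up to 200 bp away. Among these 6 were sites 166 bp from cel-mir-80, 194 bp from the snoRNA gene C26C6.13 and 102 bp from a tRNA gene, named after their values were seen. The rule places such sites just outside the small RNA class.

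The sites that made the optimal list were GC-rich. Within 50 bp of the summit the median GC content was 35.64% for members and 36.63% for all pooled regions, but 52.48% for the 51 distal optimal sites, with quartiles of 47.52% and 55.94%. All pooled regions with an optimal summit had a median of 51.49%. The median GC content of members was 34.65% below a signal of 20 and 50.99% at 70 or more, and that of the nearer intergenic regions was 33.66% and 50.50%. GC content can affect sequencing and mapping, and its part in the signal was not tested.

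**Figure D3:**
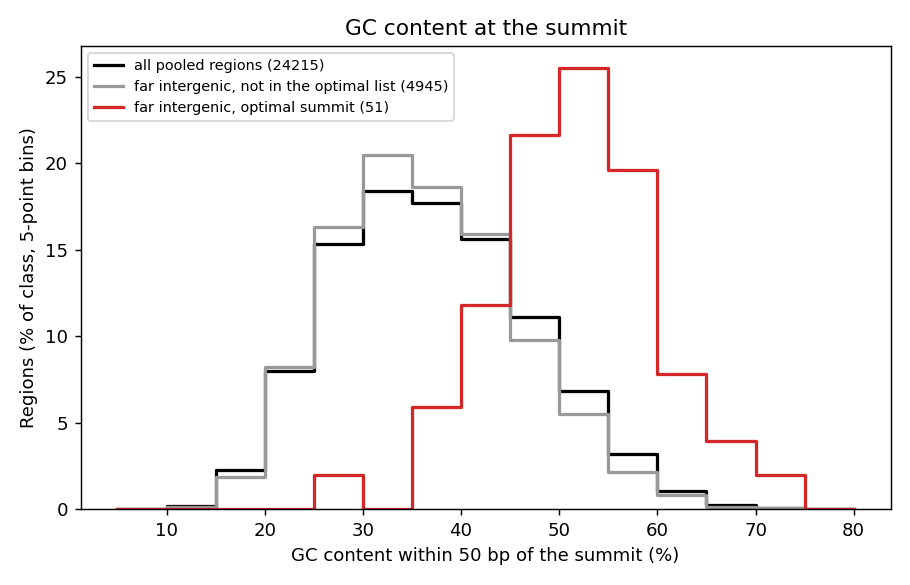
Share of regions (percent of the class, in bins of 5 percentage points) by GC content within 50 bp of the summit. The distal optimal sites (red, 51 regions, median 52.48%) sat to the right of the members that did not overlap the optimal list (grey, 4945 regions) and of all pooled regions (black, median 36.63%), which nearly coincide.

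Sequence matches were counted on both strands within 50 bp of the summit. TAATTA, a palindromic homeodomain core, was present in 271 members (5.38%) and 5.17% of all pooled regions, and in 0 of the 91 members that overlapped the optimal list. It was in 1.38% of all pooled regions with an optimal summit. Of those that were not members and had no small RNA gene within 100 bp, 2.95% held it. A count of 0, read as at most 3 counts, allows a share of up to 3.30% of the 91 and 5.88% of the 51, by counting error only. A pair of TAAT cores on opposite strands with 3 bases between them was present in 0.377% of members, 0.463% of all pooled regions and 0 of the 51 sites. Absence of these letters from a window says nothing of whether the protein bound there. TAATTA itself depends on base content: it was in 6.99% of pooled regions with 20% to 40% GC and 0.583% of those with 50% to 70% GC.

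GAGAGA was the most frequent of the strings counted at the distal optimal sites. It was present in 24 of the 51 (47.1%), in 10.3% of all members, in 8.56% of all pooled regions and in 20.7% of the 237 optimal-summit regions that were not members and had no small RNA gene within 100 bp. At 50% to 70% GC the shares were 13 of 29 distal optimal sites (44.8%), 23.8% of members outside the optimal list and 19.1% of all pooled regions. At 40% to 50% GC they were 9 of 17 (52.9%), 17.2% and 12.9%. GACGCAG, added after the windows had been read, was in 7 of the 51 sites (13.7%), 2.20% of members, 1.99% of all pooled regions and 5.06% of the 237. At 50% to 70% GC it was in 5 of 29 sites (17.2%), 8.96% of members outside the optimal list and 7.14% of all pooled regions. Since this string was picked from the windows it is counted in, its share there is a description alone. No test of these shares was made.

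The other strings were rare or absent. GTTCNANNC, the B box of tRNA promoters, was in 3.59% of members and 3.77% of all pooled regions and in 0 of the 51 sites, whereas 16.3% of all pooled regions with an optimal summit held it. That list includes regions at tRNA genes, which the rule left out here. CACGTG, the E-box of bHLH proteins, was in 1.77% of members, 1.78% of all pooled regions and 1 of the 51 sites. TGATAAG, bound by the ELT factors of the intestine, was in 0.993% of members, 1.13% of all pooled regions and none of the 51.

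Soft-masked repeats were about as common among members as over all pooled regions, and less common at the distal optimal sites. They made up more than 50% of the window in 35.3% of members, 34.6% of all pooled regions and 5 of the 51 distal optimal sites (9.80%). Over all pooled regions with an optimal summit the share was 5.71%. Windows with at least 10 placements in the genome, at 80% identity over 80% of the window, made up 472 members (9.37%) and 7.17% of all pooled regions. Of the 51 sites, 3 (5.88%) were such windows, beside 5.12% of all pooled regions with an optimal summit. Among the 237 optimal-summit regions that were not members and had no small RNA gene within 100 bp the share was 1.27%. The 3 sites lay between pef-1 and fbxa-55 (75.75), between Y64H9A.2 and C24H10.4 (57.70) and between prhg-1 and nas-30 (127.6). At least 614 placements were counted for each. Reads from such copies may be hard to place with certainty, and their part in these signals was not tested.

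**Figure D4:**
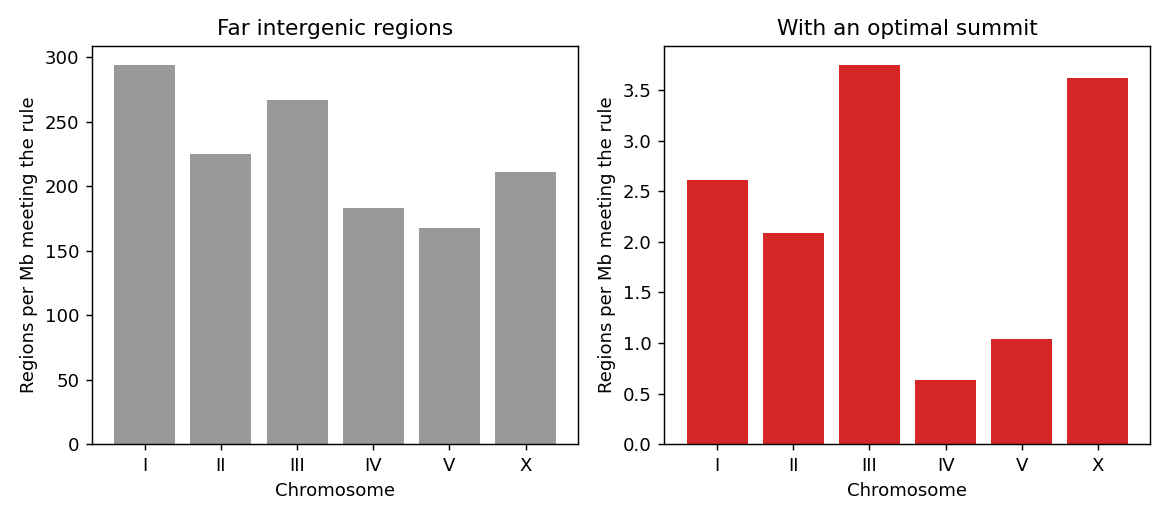
Members (left) and distal optimal sites (right) per Mb of sequence that meets the rule, by chromosome. Members ranged from 167.8 per Mb on V to 294.1 on I, and distal optimal sites from 0.636 on IV (3 sites) to 3.75 on III (10 sites), with 3.62 on X (19 sites).

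The sequence that meets the rule covers 23.50 Mb (23.4% of the chromosomes), and it held 214.3 members and 2.17 distal optimal sites per Mb. The intergenic sequence within 1000 bp of a 5′ end held 335.6 regions and 13.25 optimal summits per Mb. Chromosome X held 1109 members (22%), alongside 22.4% of the sequence that meets the rule and 16.3% of all pooled regions. It held 19 of the 51 distal optimal sites (37.3%), against 25.6% of all pooled regions with an optimal summit and 15.6% of the 237 that were not members and had no small RNA gene within 100 bp. Chromosome IV held 864 members but 3 distal optimal sites, 0.636 per Mb.

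Members were thinner in the chromosome centres, taken as 25% to 75% of the length. Of the members 40.4% lay there, beside 45.4% of the sequence that meets the rule and 44% of all pooled regions, which gives 191.0 members per Mb in the centres and 233.7 in the arms. Of the distal optimal sites, 18 of 51 (35.3%) were central, or 1.69 per Mb against 2.57 in the arms. Of all pooled regions with an optimal summit, 54.9% were central. Central sites were fewer per Mb than arm sites on each chromosome except I, where 5 lay in the centre and 2 in the arms.

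The gaps that held the members had a median width of 7602 bp between the flanking protein-coding genes, and the median was 8474 bp at the distal optimal sites. The same measure, which skips a gene that holds the summit, gave 7338 bp over all pooled regions. The rule favours wide gaps, since it asks for distance from every 5′ end. The flanking genes were in tandem for 54.7% of members, divergent for 33.1% and convergent for 12%. Over all pooled regions the shares were 51.2%, 30.4% and 18.3% in that order. Beyond the last gene of a chromosome lay 12 members. Of the 51 sites, 29 (56.9%) lay between tandem, 15 (29.4%) between divergent and 7 (13.7%) between convergent genes. Over all pooled regions with an optimal summit the shares were 42.5%, 44.5% and 13.0%. A convergent gap has no 5′ end at its edges, and a divergent gap has one at each. Of the intergenic regions within 1000 bp of a 5′ end, 50.6% lay between tandem, 47.7% between divergent and 1.74% between convergent genes. The part of the rule in these shares was not tested.

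The share of genes flanking a member was above that of all genes in 8 of the 15 gene lists and below it in the other 7. Of all 19985 protein-coding genes, 4779 (23.9%) were the nearest on one side of a member, and 91 (0.455%) flanked a distal optimal site. The share flanking a member was 46 of 102 homeobox genes (45.1%), 19 of 38 bHLH genes, 22 of 47 T-box, forkhead and GATA genes (46.8%) and 44 of 74 axon guidance and adhesion genes (59.5%). It was 94 of 207 ion channel and receptor genes (45.4%), 19 of 44 Wnt, Notch and TGF-beta genes (43.2%) and 54 of 141 neuropeptide and insulin genes (38.3%), and 85 of 274 nuclear hormone receptor genes (31%). Wide gaps hold more members, and the part of gap width in these shares was not tested.

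Counts of genes flanking a distal optimal site ran from 0 to 3 per list, beside 0.455% of all genes, and set no list apart. Of the homeobox, bHLH, T-box, forkhead and GATA, and nuclear hormone receptor genes 0 did. Of the ion channel and receptor genes 3 (1.45%) did, npr-19, npr-24 and lgc-53, a ligand-gated ion channel gene. Each of these genes had its 3′ end towards its site. The site beside npr-24 had a pooled signal of 48.75 and that beside lgc-53 had 68.96. Of the axon guidance and adhesion genes 1 (1.35%) did, mig-15, a Nck-interacting kinase gene, with a site of 72.22 that lay 7153 bp upstream. Of the Wnt, Notch and TGF-beta genes 1 (2.27%) did, sma-9.

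Members beside homeobox, forkhead and GATA genes had pooled signals of at most 51.81, and 1.69% of all members had at least 50. The median at the distal optimal sites was 72.57, but none of these genes flanked such a site. Of the 32 members at 70 or more, 31 were distal optimal sites, so lower signals here largely follow from that. The member between dnj-25 and pha-4, the FoxA organ identity gene of the pharynx, had 51.81 pooled, 36.11 in replicate 1 and 15.21 in replicate 3. The member 2092 bp upstream of ceh-48, a ONECUT homeobox gene, had 48.55 pooled, 23.73 in replicate 1 and 22.52 in replicate 3. The member 5990 bp upstream of egl-18, a GATA factor gene, had 48.01 pooled and 17.81 in replicate 1, with no match in replicate 3. None of the 3 was in the optimal list. Among nuclear hormone receptor genes, the strongest member was the one between nhr-204 and lgc-26 described above, with 79.81 and no overlap with the optimal list. The member beside nhr-17 had 56.58 and that beside nhr-20, which overlapped an optimal region, had 56.54.

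Of the 7 lists below the share of all genes, the share flanking a member was 16% of 1365 chemoreceptor genes, 18.3% of 240 C-type lectin genes, 17% of 412 F-box and BTB/MATH genes and 17.1% of 175 collagen genes. It was 13.5% of 141 cytochrome P450 and UGT genes, 11.2% of 80 histone genes and 8.54% of 82 ribosomal protein genes. Of the ribosomal protein genes 68.3% instead flanked an intergenic region within 1000 bp of a 5′ end, against 32.1% of all protein-coding genes. From these classes sri-5, clec-91, fbxa-220 and fbxa-55 flanked a distal optimal site, with signals of 72.57, 49.59, 66.98 and 75.75 in that order. The end towards the site was the 5′ end for clec-91 and the 3′ end for the others.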

How the data were processed

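The authors deposited peak lists of 2 libraries in ce11: 1 per replicate (27360 and 24519 regions), a pooled list (24215) and an optimal list (519). Per the labels and the notes deposited with them, the replicate and pooled lists hold peaks and background, and the optimal list passed a threshold on the irreproducible discovery rate. No aligner, peak caller or depth was stated: these are not given in the sources used here. Signal, as deposited, is the peak caller's value. The deposited −log10 q-value served only for 1 alternative, and the deposited score of the optimal list was not used. Lists in ce10 and signal tracks were not used here.

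Summits were placed against Ensembl 115 genes (WBcel235) with Python 3.11.15, pandas 2.3.3 and numpy 2.4.6. Membership, overlap and motif code was tested on simulated data. Exact binomial (Clopper-Pearson) 95% intervals came from scipy 1.17.1 and cover counting error only. Placements of the windows of 50 bp to each side of a summit were counted with BLAST+ 2.17.0, which caps the hits it lists, so they are minimum numbers. Figures used matplotlib 3.10.9. Genes were assigned to 15 lists by symbol. The members, lists, motifs and tests were chosen with earlier results of these data known. Named genes flank the 10 strongest members of each band, the 10 farthest members, up to 15 optimal members over 2000 bp, and up to 4 genes per list, optimal members first; exceptions are stated. Alternatives covered membership, overlap, matching distance, window and left-out replicates.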

Additional observations from a re-analysis of the deposited data

How the results depend on the processing

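The number of members stayed between 4075 and 5301 over 6 alternative rules, and their median signal between 17.82 and 18.01 over 5. The share of members in the optimal list was 1.01% with summits within 100 bp, 2.47% when small RNA genes were left out at 0 bp, and 34.8% of the 161 members with a deposited −log10 q of at least 2 (40.3% of all such regions). Over 2000 bp it was 1.18% with summits within 100 bp. The share matched in both replicates was 9.49% within 50 bp and 25.6% within 200 bp, beside 11% and 28.2% of all pooled regions. The median signal percentile was 47.68 in the pooled list and 62.6 to 66.05 when either replicate was left out and the other's list used, counting matched members only. Over all matched pooled regions it was 65.97 in the list of replicate 3, where members had 62.6. In that of replicate 1 it was 68.26, where members had 66.05. The optimal list could not be recomputed without a replicate. From 30% to 70% of the chromosome lay 31.4% of members. The share between convergent genes was 13.2% among members in the optimal list and 10.7% without members near any non-coding gene or pseudogene. Median GC was 35.3% within 25 bp.

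Motif shares moved with the window, as they do in all pooled regions. Within 25 and 100 bp they were 2.66% and 10.1% of members for TAATTA, 0.159% and 1.13% for the spaced TAAT pair, 1.77% and 6.81% for GTTCNANNC, 0.834% and 3.12% for CACGTG, 0.417% and 2.15% for TGATAAG, 5.52% and 17.5% for GAGAGA, and 1.03% and 4.43% for GACGCAG. At the 51 distal optimal sites GAGAGA was in 19.6% and 64.7%, against 4.51% and 15.6% of all pooled regions, and GACGCAG was in 9.80% and 35.3%, against 1.04% and 3.83%. TAATTA was in 0% and 1.96% of these sites, against 2.67% and 9.78% of all pooled regions. The searches for GACGCAG, the exclusion of windows with 10 or more placements (GAGAGA 45.8%) and merged spans for the optimal share (1.46%) were chosen after seeing the data. Why the values moved was not tested where the setting does not show it.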

Other observations

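Other annotated elements than those in the rule lay near some members. A pseudogene lay within 100 bp of the summit in 294 members (5.84%), beside 1.68% of all pooled regions, and in 0 of the 91 members that overlapped the optimal list. A gene of piRNAs, the small RNAs that guard the germline genome, lay that near in 2.56% of members, against 1.14% of all pooled regions, and in 1 of the 91. A lincRNA gene did so in 56 members (1.11%, against 0.355%), in 3 of the 91 and in 2 of the 51 sites. Of the intergenic regions within 1000 bp of a 5′ end, 1.45% had a pseudogene that near, 0.785% a piRNA gene and 0.333% a lincRNA gene. The rule leaves out summits inside protein-coding genes and near their 5′ ends, and its part in these shares was not tested.

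The median number of CG dinucleotides within 50 bp of the summit, counted after the windows had been read, was 3 for members and 6 for the 51 sites. It was 3 for all pooled regions and 7 for all pooled regions with an optimal summit. At 50% to 70% GC it was 6.5 for members, 7 for all pooled regions and 7 for the 29 sites in that range. It was 8 for the 111 optimal-summit regions in that range that were not members and had no small RNA gene within 100 bp.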
